A study of Homo sapiens with 6 samples.

Results

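Ribosome biogenesis genes encode the proteins that transcribe, cut, modify and assemble ribosomal RNA, together with a few enzymes of cell growth that are regulated alongside them. They were chosen by a list of 38 gene symbols and followed in BL-2, an established human line of Burkitt lymphoma, a B cell tumour with germinal centre features. The 3 control samples of the line were left untreated and the 3 other samples had been exposed for 6 h to lipopolysaccharide (LPS), an outer membrane component of Gram-negative bacteria at a dose that the labels do not give. The RNA of each sample was hybridised to its own Affymetrix array, and no label says whether a group's samples were grown apart. The p-values therefore reflect only how far these samples spread, and that spread may be technical. A gene was read from the probe set whose annotation gives that symbol and no other, and from the brightest of them where there were several. This gave 32 of the 38 listed genes, on 66 probe sets, among 19775 genes measured in the same way. NOP56, DKC1, BOP1 and PPAN had only probe sets annotated to further symbols, and GNL3 and EBNA1BP2 had no probe set named here, so these 6 genes carry no value.

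A ribosome begins in the nucleolus, where RNA polymerase I copies the ribosomal DNA into a long precursor RNA. Small nucleolar ribonucleoproteins (snoRNPs) guide its chemical modification, and long relays of helicases, GTPases, nucleases and scaffold proteins separate and fold the small and the large subunit before export to the cytoplasm. The transcription factor MYC activates many of these genes through the E-box CACGTG, and Burkitt lymphoma cells carry a MYC gene driven by immunoglobulin enhancers. B cells that respond to LPS normally grow before they divide, which includes enlarging the nucleolus.

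The arrays held B cell transcripts: all 6 measured B cell markers and all 5 markers of germinal centre or Burkitt cells had control means above 8 on the log2 scale, while none of the measured markers of other lineages did (7 monocyte, 6 T or NK cell, 5 fibroblast or epithelial and 4 red cell or platelet genes). The highest marker of another lineage, COL1A1, was just under that level at 7.99. The mean level of the germinal centre markers was 10.32 to 10.38 on the control arrays and 9.94 to 10.11 on the LPS arrays, and its part in the differences given here was not tested. Among these markers MYBL1 had means of 8.47 in controls and 7.92 after LPS (limma adjusted p = 0.0288). The arrays' medians over all probe sets lay between 6.42 and 6.47. By the level of 18 probe sets for transcripts added to every hybridisation, the arrays fell into a lower set A (control 1, LPS 1 and LPS 2) and a higher set B (control 2, control 3 and LPS 3), each of 3 arrays, with means of 10.24 and 10.57 and a gap of 0.22 between them. Set and treatment therefore overlap in part, and values within each set and with the set as a block are given beside the plain comparison. Each array measures the RNA of a whole culture, so fewer cells with a transcript and less of it per cell cannot be told apart.

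The promoters of the listed genes were searched for the E-box. The genes were listed by symbol, and whether MYC regulation weighed in drawing up the list is not known. RefSeq promoter windows of 300 bases on GRCh38.p14, 250 before and 50 after the start site, were available for 33 of the 38 genes, and BOP1, NOLC1, NOP58, RRP12 and RRS1 had none. The E-box CACGTG, which reads the same on both strands, lay in 12 of the 33 windows (36.4%), against 2030 of all 27305 windows (7.4%) and 8.9% of the 15384 windows of genes measured on the arrays. The listed windows were richer in G and C, with a median of 65.0% against 58.3%. Among the 21909 windows within the range of the listed ones, 43.7% to 82.0%, 8.7% held the motif. That range takes in most windows, so this share is not matched for base composition. A related motif, CACGCG or CGCGTG on the other strand, was in 9 listed windows (27.3%) and in 11.4% of all windows. It cannot share bases with CACGTG, but its forms on the opposite strands can overlap each other.

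Of the 13 copies of CACGTG in the listed windows, 10 began within 30 bases of the start site on either side. Those shown belong to the 4 genes with the motif whose LPS values all lay above all control values (UTP20, WDR43, PUS7 and NOC3L) and to both genes with the motif whose difference was below 0 (IMP4 and FBL). Each stretch of 30 bases is written 5′ to 3′ along the gene's strand, with the E-box in capitals.

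UTP20, chr12:101280083-101280112, plus strand: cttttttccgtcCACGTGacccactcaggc

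WDR43, chr2:28894658-28894687, plus strand: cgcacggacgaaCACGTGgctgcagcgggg

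PUS7, chr7:105522226-105522255, minus strand: gtcgctgcgccgCACGTGtgcgagcccggc

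NOC3L, chr10:94362903-94362932, minus strand: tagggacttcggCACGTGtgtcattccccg

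IMP4, chr2:130342682-130342711, plus strand: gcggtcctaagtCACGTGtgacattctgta

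IMP4, chr2:130342900-130342929, plus strand: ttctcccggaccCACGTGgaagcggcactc

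FBL, chr19:39846356-39846385, minus strand: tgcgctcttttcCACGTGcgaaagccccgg

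In UTP20 the motif began 10 bases before the start site, and in IMP4 one copy began 203 bases before it. Counting the first transcribed base as 1, the others began at base 4 in WDR43, 7 in FBL, 16 in IMP4, 20 in NOC3L and 29 in PUS7. The 11 measured genes with the motif had a median LPS difference of 0.16 (range -0.17 to 0.31), and the 17 measured genes whose windows lacked it 0.10 (range -0.10 to 0.37). These ranges overlapped. A match is a description of the sequence, not evidence of binding.

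The comparison of LPS with control cells asks whether transcripts for ribosome production differ after exposure. None of the 32 genes passed the limma test across all probe sets (adjusted p under 0.05), where 0.389% of all genes did, 0.182% of all genes as higher and 0.207% as lower. The smallest adjusted p was 0.298. By sign the listed genes leaned to one side: 27 of the 32 differences (84.4%) were above 0, against 50.8% of all genes, and their median was 0.14 on the log2 scale, against 0.00 for all genes. At an unadjusted p under 0.05, 7 of the 32 (21.9%) were higher and none lower, where 4.97% of all genes were higher and 4.59% lower. In 8 of them (25%) every LPS array lay above every control, against 7.95% of all genes, and in none did every LPS array lie below, against 7.8%. All 32 genes lay above the median level of all probe sets, and the shares of all genes are not matched for level. The genes share arrays and are not independent of one another, so the counts are a description.

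The differences were small. The largest was 1.29-fold, in LYAR, and the 95% interval stayed under a rise of 1.5-fold in 31 of the 32 genes. The 8 genes without overlap were POLR1B, POLR1C, LYAR, UTP20, WDR43, RRS1, NOC3L and PUS7, at least 1 in each role but the snoRNP proteins and the polyamine and pyrimidine enzymes. A single array mattered to the size: control 2 was the lowest of the 6 arrays in 21 of the 32 genes (65.6%), where it was lowest in 21.5% of all genes. Without control 2 the median difference of the listed genes was 0.08, without LPS 3 it was 0.09, and 27 and 25 genes were above 0. The count at an unadjusted p under 0.05 was 4 without control 2 or LPS 1, where 3.28% and 2.95% of all genes were higher, and 11 without control 1, where 7.6% were. Without control 1 or LPS 2, 15 genes had no overlap, where 16.1% and 12.1% of all genes had none, since fewer arrays are parted more easily.

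**Figure D1:**
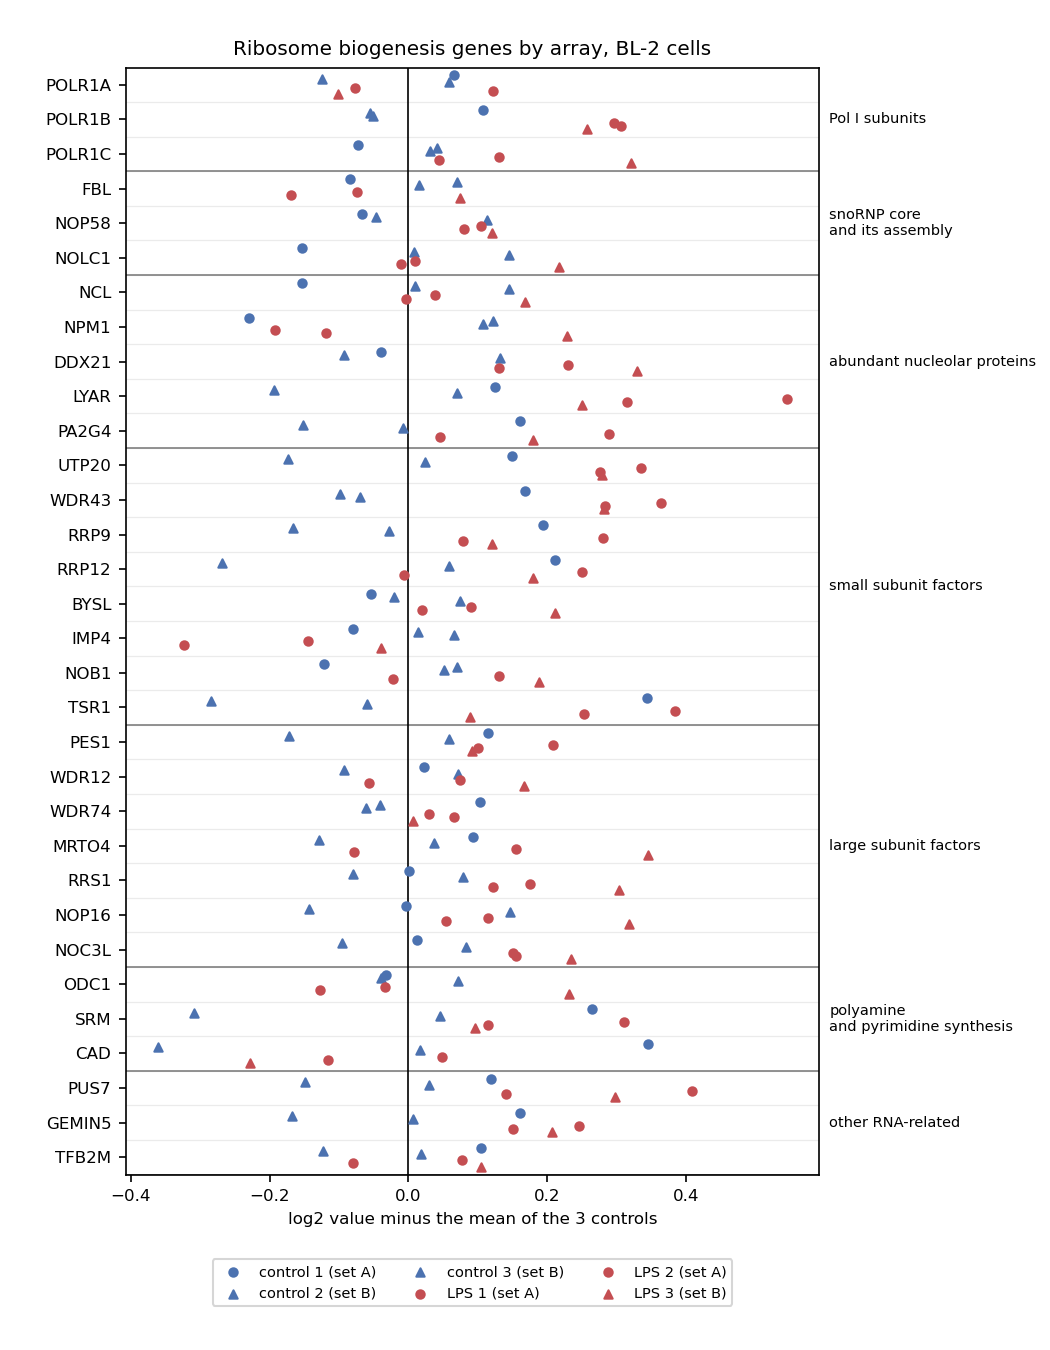
Values of the 32 measured ribosome biogenesis genes on each of the 6 arrays, as the log2 value minus the mean of the 3 controls (horizontal axis), grouped by role. Blue points are controls and red points LPS, circles array set A and triangles set B; most red points lie to the right of 0, and control 2 is the leftmost point in 21 genes.

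RNA polymerase I was represented by 3 subunits, and whether their differences differed from each other was not tested. POLR1B, the second largest subunit and part of the catalytic core, stood at 9.78, 9.62 and 9.62 in controls 1 to 3 and at 9.97, 9.98 and 9.93 in LPS 1 to 3. The LPS arrays lay close together and above all controls. The difference was 0.29 (SE 0.0877, 95% interval 0.10 to 0.48, limma adjusted p = 0.315, n = 3 per group), or 1.22-fold. POLR1C, which RNA polymerase I shares with RNA polymerase III, read 8.82, 8.94 and 8.93 in controls and 9.03, 8.94 and 9.22 after LPS. LPS 2 cleared control 2 by less than the printed digits show, and the difference was 0.17 (SE 0.0911). POLR1A, the largest subunit, gave 8.04, 7.85 and 8.03 in controls and 7.89, 8.09 and 7.87 after LPS. These overlapped fully, with a difference of -0.02 and an interval from -0.20 to 0.16.

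The 3 snoRNP proteins had overlapping groups on their brightest probe sets, with differences from -0.06 to 0.10. NOP58, a core protein of the particles that guide ribose methylation, read 11.53, 11.55 and 11.71 in controls and 11.70, 11.68 and 11.72 after LPS, a difference of 0.10 (interval -0.10 to 0.30). FBL, the methyltransferase of the same particles, read 12.22, 12.37 and 12.32 in controls and 12.23, 12.13 and 12.38 after LPS. Its highest and its lowest value were both LPS arrays, and the difference was -0.06 (interval -0.27 to 0.15). NOLC1, a nucleolar chaperone of snoRNPs, gave 0.07 (interval -0.16 to 0.30), with control 1 lowest and LPS 3 highest. Its other probe sets gave 0.13 (interval -0.07 to 0.34) and 0.21 (interval 0.02 to 0.39, limma adjusted p = 0.551), and on both of these every LPS array lay above every control.

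Among the 5 abundant nucleolar proteins measured, the differences ran from -0.03 to 0.37, and differences between these genes were not tested. LYAR, a zinc finger protein of early ribosomal RNA processing, read 10.41, 10.09 and 10.36 in controls and 10.83, 10.60 and 10.54 after LPS, 10.29 ± 0.17 against 10.66 ± 0.156 (SD, n = 3). All LPS arrays were above all controls, with a difference of 0.37 (SE 0.111, interval 0.13 to 0.61, adjusted p = 0.298 by limma). DDX21, an RNA helicase that acts in transcription and processing of ribosomal RNA, read 12.35, 12.29 and 12.52 in controls and 12.62, 12.52 and 12.72 after LPS. Here control 3 reached the level of LPS 2, and the difference was 0.23 (SE 0.099, adjusted p = 0.577 by limma).

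NCL (nucleolin), an RNA-binding protein of the dense nucleolus, ranged from 12.39 to 12.68 in controls and from 12.54 to 12.71 after LPS, a difference of 0.07 (interval -0.15 to 0.29). NPM1 (nucleophosmin), a histone and ribosome chaperone, read 13.48, 13.83 and 13.82 in controls and 13.52, 13.59 and 13.94 after LPS. The values of NPM1 followed the array sets rather than treatment: the 3 arrays of set A were the 3 lowest, and the LPS difference was -0.03 (interval -0.30 to 0.24). PA2G4, a growth-regulating protein that binds ribosomes, gave 0.17 (interval -0.06 to 0.40) with overlapping groups.

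Of 8 factors of the small subunit 7 were above 0, and UTP20 and WDR43 were parted by group. WDR43, of the subcomplex that binds the precursor first and links its transcription to processing, read 9.46, 9.19 and 9.22 in controls and 9.65, 9.57 and 9.57 after LPS. Every LPS array lay above every control, and the difference was 0.31 (SE 0.0935, interval 0.11 to 0.51, limma adjusted p = 0.304). UTP20, a large scaffold of the same processing machine, read 8.72, 8.40 and 8.60 in controls and 8.91, 8.85 and 8.85 after LPS, a difference of 0.30 (SE 0.0915, limma adjusted p = 0.32). In both genes the LPS arrays were tighter than the controls, with SDs of 0.0468 and 0.0337 against 0.146 and 0.163.

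TSR1, a GTPase-like protein of late small subunit assembly, gave 0.24 on controls with a mean of 10.66 ± 0.318 (SD, n = 3), control 1 being far the highest of them, and its interval ran from -0.06 to 0.54. RRP9, a protein of a snoRNP that takes part in processing the precursor, gave 0.16 and RRP12, an export factor, 0.14. BYSL (bystin) gave 0.11 and NOB1, the nuclease of the last cut, 0.10. All 4 had overlapping groups, with adjusted p by limma of 0.747 to 0.867. IMP4 was the exception. It read 11.18, 11.28 and 11.33 in controls and 11.12, 10.94 and 11.22 after LPS, so that LPS 3 overlapped the controls, and the difference was -0.17 (SE 0.1, interval -0.38 to 0.05). It was the lowest of all 32.

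All 7 measured factors of the large subunit were above 0, none of them by more than 0.20. RRS1, an assembly factor of the early large subunit, read 10.25, 10.17 and 10.33 in controls and 10.43, 10.37 and 10.55 after LPS, a difference of 0.20 (SE 0.0928, interval 0.00 to 0.40). NOC3L, of a complex that moves precursors out of the nucleolus, read 10.30, 10.19 and 10.37 in controls and 10.43, 10.44 and 10.52 after LPS, a difference of 0.18 (SE 0.0904). Neither gene had overlapping groups, though the gaps were small. NOP16 gave 0.16, MRTO4, a stand-in for a ribosomal stalk protein during assembly, 0.14, and PES1 0.13. WDR12, which works in 1 complex with PES1 and BOP1, gave 0.06, and WDR74 0.03. On the brightest probe sets of these 5 genes the groups overlapped. A dimmer NOP16 probe set gave 0.22 (limma adjusted p = 0.597), with every LPS array above every control.

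The growth enzymes showed no common direction. ODC1, the rate-limiting enzyme of polyamine synthesis, read 13.21, 13.20 and 13.31 in controls and 13.21, 13.11 and 13.47 after LPS. The LPS arrays bracketed the controls, with a difference of 0.02 (interval -0.20 to 0.25). SRM, spermidine synthase, gave 0.17 (interval -0.10 to 0.45), on controls from 10.37 to 10.94. CAD, which carries out the first steps of pyrimidine synthesis, read 10.29, 9.58 and 9.96 in controls and 9.99, 9.82 and 9.71 after LPS. Control 1 was the highest and control 2 the lowest of all 6 CAD values, and the difference of -0.10 had the widest interval of the list, -0.41 to 0.21.

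The remaining RNA-related genes included PUS7, a pseudouridine synthase, at 10.32, 10.05 and 10.23 in controls and 10.61, 10.34 and 10.50 after LPS. LPS 2 stood just above control 1, the others well apart, and the difference was 0.28 (SE 0.103, interval 0.06 to 0.50, limma adjusted p = 0.466). GEMIN5, the RNA-binding member of the complex that assembles spliceosomal particles, gave 0.20 (interval -0.01 to 0.42), and TFB2M, a mitochondrial transcription factor, 0.03. MYC itself, which is not among the 38, was at 12.52, 12.69 and 12.88 in controls and 12.57, 12.58 and 12.77 after LPS. Its groups overlapped, with a difference of -0.06 (interval -0.29 to 0.17), and it was higher in set B by 0.23 (adjusted p = 0.0314 by limma).

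**Figure D2:**
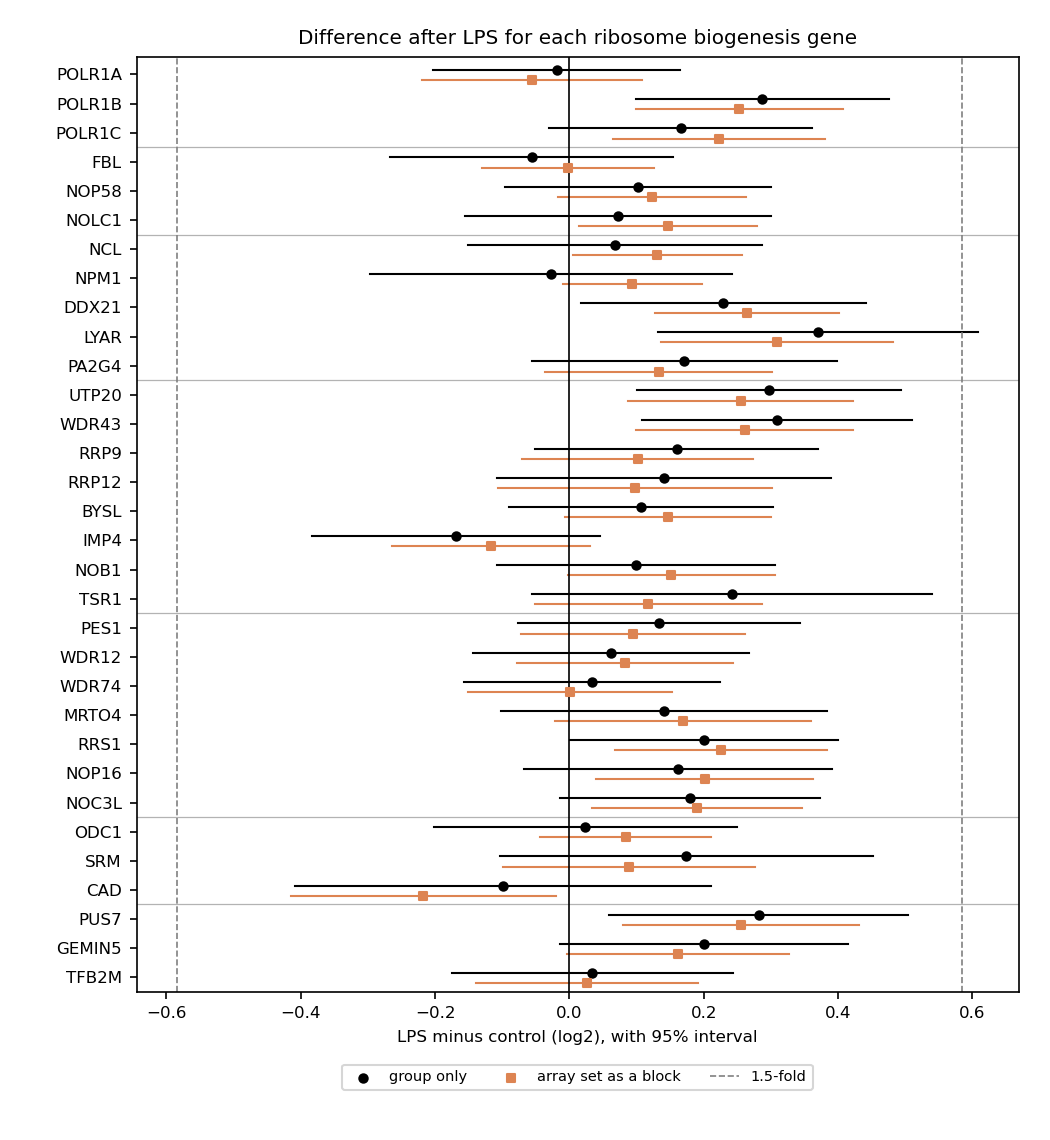
LPS minus control difference on the log2 scale for each gene with its 95% interval, from the fit with group alone (black circles) and with array set as a block (orange squares). Dashed lines mark 1.5-fold; 31 of the 32 black intervals stay below the upper line, and 7 lie wholly above 0.

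Several probe sets were available for 18 of the genes, and in 13 of these all of them had 1 sign. For 3 of the leading genes the further probe sets had the same sign: POLR1B gave 0.11, 0.26, 0.29 and 0.29, DDX21 0.23 and 0.40, and LYAR 0.37 and 0.23. On the POLR1B probe set at 0.11 the groups overlapped, with an interval from -0.09 to 0.31. Probe sets of a gene read the same RNA samples, so they add no replicates. The dimmer DDX21 probe set had no overlap, with controls from 11.35 to 11.80 and LPS arrays from 11.82 to 12.17. PA2G4 gave 0.17 by its brightest and 0.44 by its dimmer probe set. A dimmer TSR1 probe set had no overlap either, at 0.23 (limma adjusted p = 0.554). NPM1 stayed between -0.05 and -0.02 on all 3 of its probe sets. The signs were mixed in POLR1A (-0.02, 0.13 and 0.15), RRP12, PES1, MRTO4 and TFB2M. Over all 66 probe sets 54 were above 0, where 51.8% of all probe sets were. At an unadjusted p under 0.05, 15 were higher, against 4.55% of all probe sets, and none passed after adjustment, against 0.264%. WDR43, UTP20, RRS1, NOC3L and PUS7 rest on 1 probe set each.

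**Figure D3:**
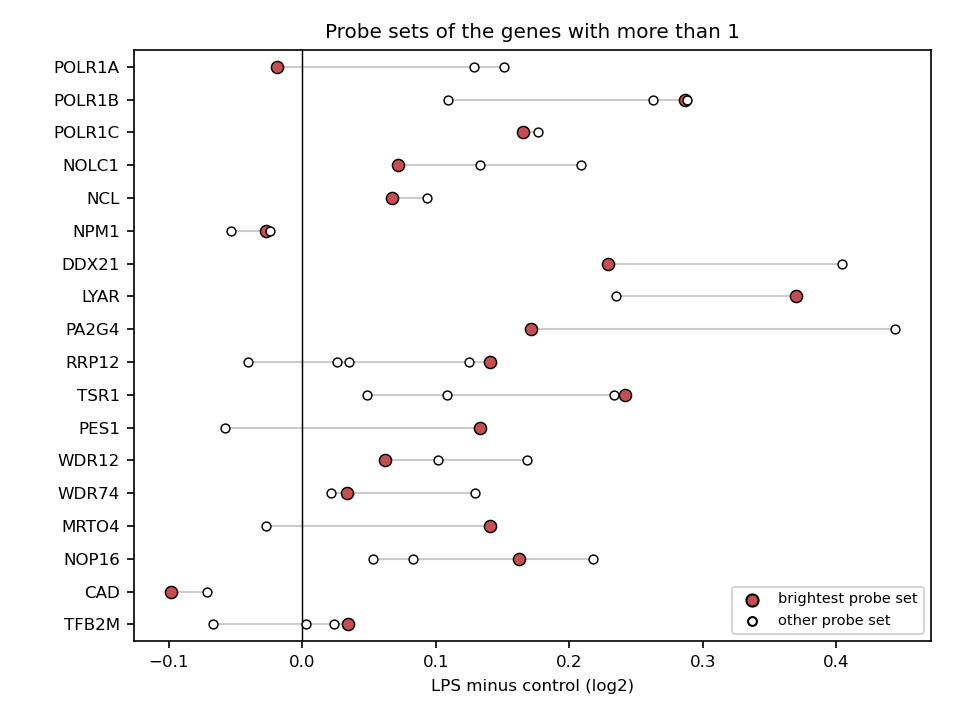
LPS minus control difference on the log2 scale for every probe set of the 18 genes with more than 1, red for the brightest probe set and white for the others. POLR1B, DDX21, LYAR and PA2G4 lie to the right of 0 on all their probe sets, and NPM1 and CAD to the left.

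In some of these genes the array sets differed by as much as the largest LPS difference. With treatment in the fit, 4 of the 32 genes (12.5%) differed between the sets by limma, where 4.47% of all genes did, 2.96% as lower in set B. NPM1 and NOLC1 were higher in set B, by 0.36 (adjusted p = 4.78e-05) and 0.22 (adjusted p = 0.0448), and TSR1 and CAD were lower in set B, at -0.37 (adjusted p = 0.00691) and -0.36 (adjusted p = 0.0298). Over the list the set differences balanced, with 16 genes lower in set B, 16 higher and a median of 0.00, where 56.4% of all genes were lower. Set A holds 2 of the 3 LPS arrays. With the set as a block, NPM1 and NCL, higher in set B by value, had LPS differences of 0.09 and 0.13 in place of -0.03 and 0.07, and TSR1 and SRM, lower in set B by value, 0.12 and 0.09 in place of 0.24 and 0.17.

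With array set as a block, 28 of the 32 differences were above 0, the median was 0.13, and 12 genes (37.5%) were higher at an unadjusted p under 0.05, against 6.11% of all genes. That median was 0.06 without LPS 3 and 0.22 without control 1. DDX21 rose by 0.26 (SE 0.0664, limma adjusted p = 0.0447), the single listed gene to pass, where 2.02% of all genes passed, 0.865% as higher and 1.16% as lower. Its dimmer probe set passed as well (adjusted p = 0.0365). The DDX21 call was lost without control 1, control 2, LPS 1 or LPS 3 (adjusted p = 0.232, 0.149, 0.218 and 0.678 by limma), and with quantile normalisation (adjusted p = 0.0539). LYAR followed at 0.31 (adjusted p = 0.071) and POLR1B at 0.25 (adjusted p = 0.11). LYAR passed without control 3 (adjusted p = 0.0327) or LPS 2 (adjusted p = 0.0291), and PUS7 without LPS 2 (adjusted p = 0.0333). CAD stood at -0.22 in this fit and passed as lower without control 2 (adjusted p = 0.04). NPM1 did not pass here either (adjusted p = 0.566). Over all probe sets this fit called 343 higher and 391 lower with all 6 arrays. It called 352 higher without LPS 2 and 432 lower without control 2.

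Within set A, where 2 LPS arrays meet 1 control, 19 of the 32 differences were above 0 with a median of 0.06. Of all 19775 genes, 10101 were above 0 in set A. Within set B, where 1 LPS array meets 2 controls, 29 of the 32 were above 0 with a median of 0.22. Of all genes, 9351 were above 0 in set B. In 19 genes (59.4%) the difference was above 0 in both sets, against 27.4% of all genes, and in 10 genes the sets had opposite signs. LYAR was even across the sets at 0.31 in each, DDX21 gave 0.22 and 0.31, and POLR1B 0.19 and 0.31 in sets A and B. MRTO4 differed most, at -0.05 in set A and 0.39 in set B. RRP12 gave -0.09 and 0.28 and CAD -0.38 and -0.06. Each of these within-set values rests on a single array on one side, and whether the sets differ in their response was not tested.

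**Figure D4:**
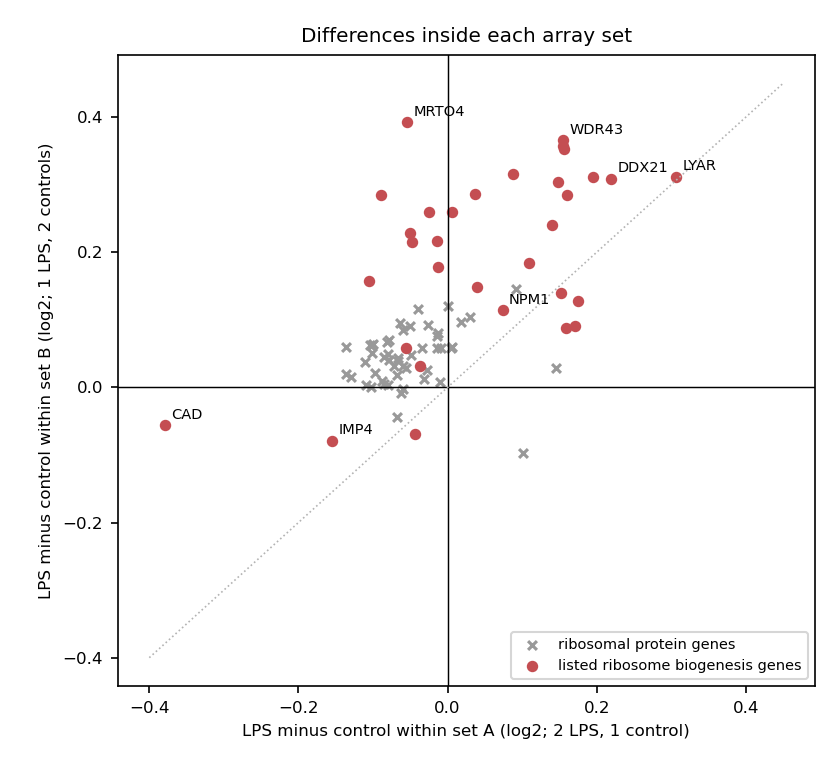
LPS minus control difference within array set A (horizontal) against that within set B (vertical), both on the log2 scale, for the 32 listed genes (red) and 50 ribosomal protein genes (grey crosses); the dotted line marks equal values. LYAR and DDX21 are high in both sets, MRTO4 only in set B by its value, and the ribosomal protein genes lie close to 0 in both.

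Further genes of the pathway were taken from lists drawn up by function, with earlier results of these data known. They share the arrays with the listed genes and are not independent, so their counts are a description too. Of 141 measured assembly factors outside the 38, in 5 lists, none passed the limma test, against 0.389% of all genes. Of these factors 118 (83.7%) were above 0, against 50.8% of all genes, and the median was 0.13. At an unadjusted p under 0.05, 32 were higher and 2 lower, where 4.97% of all genes were higher and 4.59% lower. In 41 (29.1%) every LPS array lay above every control, against 7.95% of all genes. In 2 every LPS array lay below every control, against 7.8% of all genes. By list, the median was 0.14 for 13 genes of RNA polymerase I and ribosomal DNA transcription, 0.12 for 12 snoRNP genes, 0.14 for 50 small subunit genes, 0.12 for 53 large subunit genes and 0.06 for 13 genes of the RNA exosome. Without control 1, 3 of the 141 passed as higher, in a fit that called 216 of all probe sets higher, against 71 with all 6 arrays. Without control 2 the median of the 141 was 0.08.

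Outside the 38 the smallest p belonged to UTP15, of the same subcomplex as WDR43. It read 8.77, 8.66 and 8.63 in controls and 9.13, 8.97 and 9.08 after LPS, a difference of 0.37 (SE 0.084, adjusted p = 0.108 by limma) with no overlap. TAF1A, of the factor that recruits RNA polymerase I to its promoter, read 7.70, 7.78 and 7.91 in controls and 8.21, 8.15 and 8.03 after LPS, a difference of 0.33 (adjusted p = 0.151 by limma). TAF1D, another subunit of the recruiting factor, gave 0.38, and RRN3, which readies the polymerase for initiation, 0.24. Of the 13 genes of this list 11 were above 0 and 2 below. POLR1D, a further polymerase subunit, was at -0.25 (limma adjusted p = 0.443), with every LPS array below every control. It was named after its value was seen. In the snoRNP list SHQ1, a chaperone of dyskerin, gave 0.35, NAF1, which assembles the same particles, 0.39, and ZNHIT6, an assembly factor of ribose methylation particles, 0.27. HEATR3, LSG1 and GNL2 led the large subunit list at 0.28, 0.28 and 0.31, and UTP14A and LTV1 followed UTP15 in the small subunit list at 0.27 and 0.25. In the exosome list EXOSC9 gave 0.25, EXOSC6 0.23 and EXOSC5 -0.20.

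With array set as a block, 5 of the 141 passed as higher, where 0.865% of all genes did. They were UTP15 at 0.36, TAF1A at 0.33, RRP1B at 0.33, SHQ1 at 0.32 and TAF1D at 0.29, with adjusted p by limma from 0.00992 to 0.0476. RRP1B is a large subunit processing factor and was named after its value was seen. This count was 1 without control 1 or LPS 1, and 0 without LPS 3. Ribosomal protein genes, the products that these factors assemble, gave another picture. Of 50 measured, none passed, against 0.389% of all genes. In 48 the difference was below 0, with a median of -0.12, where 9728 of all 19775 genes were below 0. But 46 (92%) differed between the array sets by limma, all of them higher in set B, against 1.5% of all genes. The median set difference over the 50 was 0.38. The smallest p among them belonged to RPL32, RPS9 and RPS10, at -0.18, -0.17 and -0.18 (limma adjusted p = 0.788 to 0.796). With the set as a block their median LPS difference was -0.01, and the sets taken singly gave -0.06 in A and 0.05 in B.

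Among 10 further genes of polyamine and pyrimidine synthesis 8 were above 0, against 50.8% of all genes, with a median of 0.09. None passed, against 0.389% of all genes. CTPS1, UMPS and AZIN1 led at 0.21, 0.20 and 0.18. Of the 4 measured genes that tie failed ribosome assembly to p53, CDKN1A gave 0.21 (limma adjusted p = 0.702), RPL11 -0.08 and CDKN2A 0.02, and none passed.

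**Figure D5:**
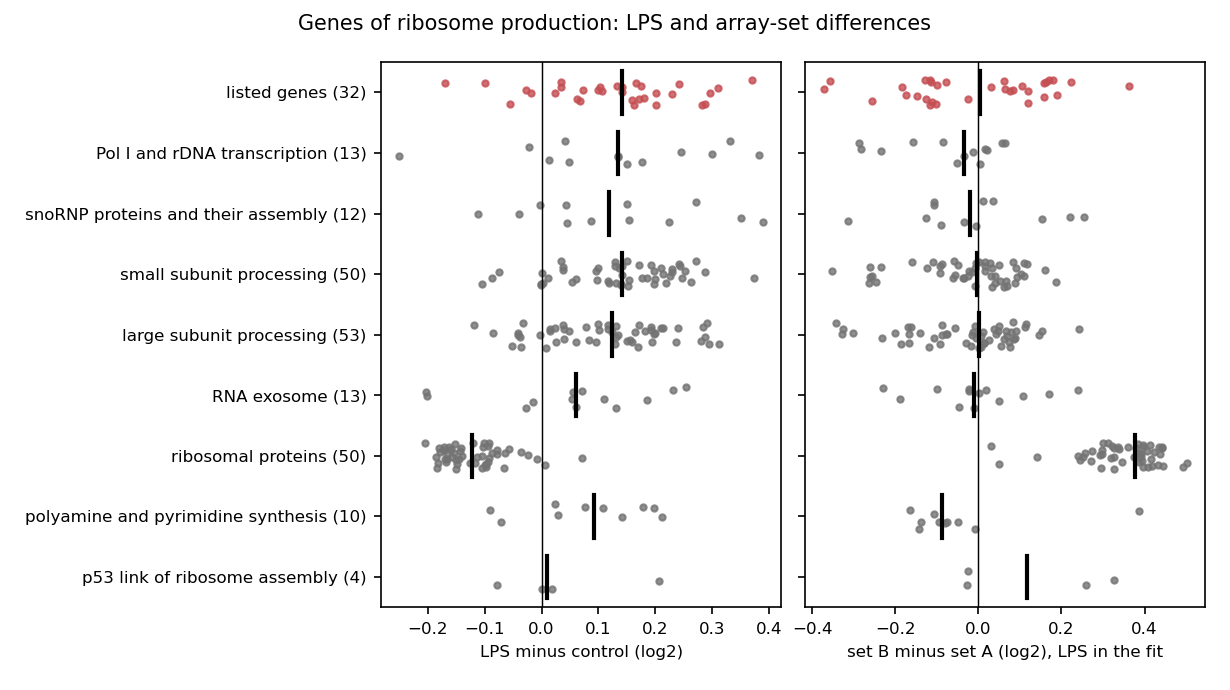
Differences on the log2 scale for the listed genes (red) and 8 further lists (grey), 1 point per gene with the number of genes in brackets and the median as a black bar. On the left, LPS minus control: the assembly lists have medians above 0 and the ribosomal protein genes one of -0.12; on the right, set B minus set A with treatment in the fit, where the ribosomal protein genes have a median of 0.38.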

How the data were processed

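Total RNA from 6 samples of BL-2 was labelled with biotin by in vitro transcription and hybridised to Affymetrix arrays, per the labels' protocols. The deposited table gives 1 value per probe set and array. The deposited values were taken to be log2, since they lie between 5.46 and 14.81; the base is inferred. Background correction, summary and normalisation by the authors are not given in the sources used here.

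After 62 control probe sets were left out, 54613 were tested with limma 3.58.1 (R 4.3.3), fitting group alone, with variances moderated with an intensity trend and two-sided p-values adjusted by Benjamini-Hochberg over all probe sets, threshold 0.05. No filter on dim probe sets was used. Of these probe sets 41091 had 1 gene symbol, 1801 several and 11721 none; the symbols of all 32 genes matched RefSeq by gene identifier. The fits were tested on simulated data. The number of arrays limits the precision: the median SE was 0.0986 for the listed genes and 0.0677 for all genes.

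The 38 genes, the further lists, the array sets and the alternatives were chosen with earlier results of these data known. Outside the 38, the rule names MYC, listed pathway genes that pass the test and the 3 of each list with the smallest p. Alternatives are given in the closing section.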

Additional observations from a re-analysis of the deposited data

How the results depend on the processing

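None of the 32 genes passed under these alternatives: the replicate block, quantile normalisation, median centring, only probe sets above the median level, no intensity trend, array weights, averaging the probe sets of a gene, leaving out _x_at and _s_at probe sets (29 genes left), a threshold of 0.10, and leaving out each array. The titles' replicate numbers are shared by both groups. Deviations of same-numbered arrays from their group means had correlations of 0.44, -0.04 and 0.23, and those of other pairs -0.47 to 0.32. Control 1 and control 3 went best with the LPS array of their own number, and control 2 with LPS 3. The array sets enter these values too, so they cannot settle whether samples were paired. The main fit took no pairs, and the replicate block is given beside it. With the replicate block 12 listed genes were higher at an unadjusted p under 0.05 (37.5%, against 6.89% of all genes), 3 further assembly factors were called, and 264 probe sets were called higher and 234 lower, against 71 and 73. Array set as a block gave 1 listed gene, 12 at the unadjusted p, 5 further factors, and 343 higher and 391 lower. Probe sets (or genes) called higher and lower were 121 and 171 with quantile normalisation, 173 and 136 with array weights, 40 and 46 with the mean per gene, 41 and 41 without _x_at and _s_at, and 132 and 133 at 0.10. Without the trend 110 were higher. Array weights and no trend each called 1 further factor. Within set A the further factors' median was 0.0467.

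Some small differences changed sign, none passing. NPM1 was 0.0939 with the set block and 0.0734 after quantile normalisation, which put WDR74 at -0.0059 and TFB2M at -0.0198. Array weights put ODC1 at -0.0242. The mean over probe sets put POLR1A at 0.087 and TFB2M at -0.0014. Without _x_at and _s_at, RRP12 was -0.0408 and MRTO4 -0.0273. Leaving out 1 array gave ranges of -0.0895 to 0.0222 for POLR1A, -0.12 to 0.000497 for FBL, -0.0045 to 0.14 for NOLC1, -0.0095 to 0.14 for NCL, -0.16 to 0.0552 for NPM1, -0.0803 to 0.10 for ODC1, -0.28 to 0.0741 for CAD and -0.027 to 0.0912 for TFB2M.

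Leaving out 1 array, the listed genes higher at the unadjusted p ran from 4 (without control 2) to 11 (without control 1). The shares of all genes in these fits were 3.28% and 7.6%. Listed genes with every LPS array above every control ran from 8 to 15. There were 8 without control 2, LPS 1 or LPS 3, where the shares of all genes were 12.1%, 11% and 15.7%. Further factors called ran from 0 to 3, and probe sets called higher from 5 to 216 and lower from 4 to 158. With array set as a block, an alternative chosen with the data known, leaving out 1 array gave 0 to 3 listed genes higher and 0 to 1 lower, a median of 0.0569 to 0.22, 0 to 6 further factors, and 43 to 352 probe sets higher and 59 to 432 lower; with quantile normalisation 0 listed genes passed. The cause of these changes was not tested.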
